A study of Mus musculus with 14 samples.

Results

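The 10 genes described here encode enzymes of ammonia and amino acid metabolism in the liver. They are *Nags*, *Cps1*, *Otc*, *Ass1*, *Asl* and *Arg1* of the urea cycle, and *Gls2* and *Hal*, which release ammonia from amino acids. The last are *Glul*, which joins ammonia to glutamate, and *Oat*, which acts on ornithine. These genes were chosen by name from the 54532 genes of the deposited count tables, and all 10 were found. The first 8 are treated as periportal genes and the last 2 as pericentral genes, after their known position in the liver lobule.

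Blood enters the liver lobule around the portal vein and leaves it at the central vein. Periportal hepatocytes turn most of the ammonia into urea, which needs carbamoyl phosphate made in mitochondria and further steps that return ornithine to the start. A thin layer of hepatocytes around the central vein catches the ammonia that passes by, and joins it to glutamate with glutamine synthetase. WNT and beta-catenin signaling maintains the pericentral genes.

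Livers came from 4 mice with the genotype Trf2F/F;Rosa-mTmG (Trf2-deleted livers) and from 4 mice with the genotype Rosa-mTmG (control livers), on a C57BL/6J background. Both groups received AAV8-Tbg-Cre, a virus whose hepatocyte promoter drives Cre recombinase, by tail vein, so that both carry virus and Cre and both carry the reporter, but only the first has *Trf2* alleles that Cre can cut. The labels place the deleted livers 6 weeks after deletion. For age and sex, nothing is given in the sources used here. The RNA is that of whole liver, and fewer cells of a type and less RNA per cell cannot be told apart in it. As a reference, immortalized mouse embryonic fibroblasts (iMEFs) with the genotype Trf2F/F;Rosa-CreER were used, made with SV40 large T antigen. In them, 3 cultures given 4-hydroxytamoxifen and collected at day 7 (senescent iMEFs) were compared with 3 cultures given vehicle (control iMEFs). Cells given 4-hydroxytamoxifen without loss of *Trf2* were not analysed here, so effects of the drug and of the loss cannot be told apart. The study speaks of the iMEFs as a cell line, and p-values then measure the spread between cultures of it.

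The libraries held 15364450 to 17285469 reads in genes in Trf2-deleted livers, 16729877 to 18015991 in control livers, 16146579 to 18106024 in senescent iMEFs and 18396405 to 20177401 in control iMEFs. The targeted gene, *Terf2* (*Trf2*), stood at 4.91, 2.84, 2.87 and 4.67 CPM (counts scaled to a common number of reads in genes with TMM factors) in the 4 Trf2-deleted livers, against 11.3, 13.8, 13.8 and 11.6 CPM in control livers, a log2 fold change of -1.72 (SE 0.20, adjusted p = 0.00216). In iMEFs it averaged 0.25 ± 0.048 CPM in senescent cells and 38.3 ± 0.775 CPM in control cells (SD, n = 3 each). Hepatocyte markers summed to 97349 to 122053 CPM in Trf2-deleted livers and 91888 to 102759 CPM in control livers. Of these 10 markers, 4 had a negative log2 fold change, where 50.7% of all tested genes did. Their median was 0.04, and 0 passed the threshold by edgeR, DESeq2 or limma-voom. The summed macrophage and Kupffer cell markers reached 489 to 578 CPM in Trf2-deleted livers and 260 to 576 CPM in control livers. All 9 tested macrophage markers had a positive log2 fold change, with 0 past the threshold by edgeR, DESeq2 or limma-voom and 2 at an unadjusted p under 0.05 by edgeR. The red blood cell markers summed to 132 to 276 CPM in Trf2-deleted livers and 105 to 172 CPM in control livers, with 5 of 5 positive, 0 past the threshold by any of the tools and 3 at an unadjusted p under 0.05. Of all tested genes, 7.54% were at an unadjusted p under 0.05 by edgeR. In other lists, log2 fold changes were negative for 6 of 8 tested lymphocyte markers and 7 of 10 of stellate cells and fibroblasts. They were negative for 1 of 7 endothelial, 2 of 6 cholangiocyte and progenitor, and 0 of 3 tested neutrophil markers. By edgeR 0 markers of these lists passed, and DESeq2 called 1, of the stellate cell and fibroblast list. The part of these cell types in the results below was not tested. In iMEFs *Alb* was at 0 reads in every library, and the fibroblast markers summed to 9150 to 11366 CPM in senescent cells and 20759 to 22662 CPM in control cells.

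The stretch of DNA just before each start site is shown for the 6 of the 10 members that were matched in the RefSeq table. Among them, *Otc*, *Hal* and *Nags* had 0 or nearly 0 reads in iMEFs, whereas *Ass1*, *Oat* and *Glul* were read in both tissues. *Cps1*, also at 0 reads in iMEFs, *Asl*, *Arg1* and *Gls2* were not matched. Each window holds the 150 bases before the start of the RefSeq gene (GRCm38.p6), 5′ to 3′ on the strand of the gene. Capitals mark matches, on either strand, to the letters TATAA of the TATA box, CCAAT of the CCAAT box, GGGCGG of the GC box or TTGCNNAA of a C/EBP site, motifs chosen after the sequences were seen.
Otc (chrX:10252155-10252304, plus strand): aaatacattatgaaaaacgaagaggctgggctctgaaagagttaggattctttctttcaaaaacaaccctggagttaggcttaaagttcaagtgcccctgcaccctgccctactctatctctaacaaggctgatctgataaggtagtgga
Hal (chr10:93488618-93488767, plus strand): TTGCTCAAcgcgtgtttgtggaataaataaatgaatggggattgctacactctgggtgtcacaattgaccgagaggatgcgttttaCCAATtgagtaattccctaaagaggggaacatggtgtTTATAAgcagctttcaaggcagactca
Nags (chr11:102145363-102145512, plus strand): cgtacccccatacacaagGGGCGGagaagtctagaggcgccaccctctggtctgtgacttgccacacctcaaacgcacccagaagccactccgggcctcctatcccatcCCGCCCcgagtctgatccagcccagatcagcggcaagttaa
Ass1 (chr2:31470120-31470269, plus strand): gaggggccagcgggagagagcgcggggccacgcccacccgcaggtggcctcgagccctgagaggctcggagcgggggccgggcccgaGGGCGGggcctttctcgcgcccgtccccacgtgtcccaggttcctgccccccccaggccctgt
Oat (chr7:132576399-132576548, minus strand): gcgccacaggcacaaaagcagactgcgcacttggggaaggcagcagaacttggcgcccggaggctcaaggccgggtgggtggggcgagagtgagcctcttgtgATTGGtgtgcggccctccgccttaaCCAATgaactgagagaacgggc
Glul (chr1:153899779-153899928, plus strand): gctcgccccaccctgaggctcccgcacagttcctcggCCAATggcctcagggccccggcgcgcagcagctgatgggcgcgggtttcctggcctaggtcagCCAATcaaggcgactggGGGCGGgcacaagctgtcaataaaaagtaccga

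The windows of *Otc* and *Hal* each held 42.7% G and C, and 15.9% of the 32851 windows in the table held less. *Nags*, also nearly unread in iMEFs, held 61.3%, close to the 63.3% of *Oat* and 66.0% of *Glul*, and *Ass1* held 78.7%, against a median of 54.0% over all windows. CpG pairs numbered 1 in *Otc* and 4 in *Hal*, and 15 in *Ass1*, 11 in *Glul*, 9 in *Oat* and 8 in *Nags*. TATAA was found in *Hal* alone among the 6 members and in 14.2% of all windows. CCAAT was found in *Hal*, *Oat* and *Glul* and in 24.5% of windows, GGGCGG in *Nags*, *Ass1* and *Glul* and in 28.6%, and TTGCNNAA in *Hal* and in 5.46%. The letters CTTTGAT, a form of the TCF/LEF motif, were in 0 of the 6 windows and in 1.80% of all windows. In GENCODE release M21, *Ass1* starts earlier than in RefSeq, and 63 bases of its window lie within the span of the gene. A match is only a run of letters, and binding was not measured.

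Hepatocyte loss of *Trf2* left the 10 genes with 0 calls in the livers. By edgeR, 0.343% of the 14270 genes tested passed an adjusted p of 0.05, 0.308% higher and 0.035% lower. DESeq2 and limma-voom also called 0 of the 10, and their shares of calls over all genes are not given here. With so few calls over all genes by edgeR, 0 of 10 does not set the members apart from other genes. With an unadjusted p under 0.05 each of the 3 tools had 1 member, *Glul*, where edgeR had 7.54% of all genes. The log2 fold changes were positive for 5 members and negative for 5, as were 50.7% negative among all genes. Their median was 0.01 in the periportal genes, against -0.004 over all genes. The pericentral pair went in opposite directions, with *Glul* at -0.37 and *Oat* at 0.27, so its median of -0.05 describes neither gene. The 95% confidence interval stayed within 1.5-fold in either direction for 8 members, all but *Glul* and *Oat*, and for 58.4% of all genes. In all 10 members the livers of the 2 groups overlapped, and 2.55% of tested genes had every Trf2-deleted liver above the controls and 1.96% every one below.

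**Figure D1:**
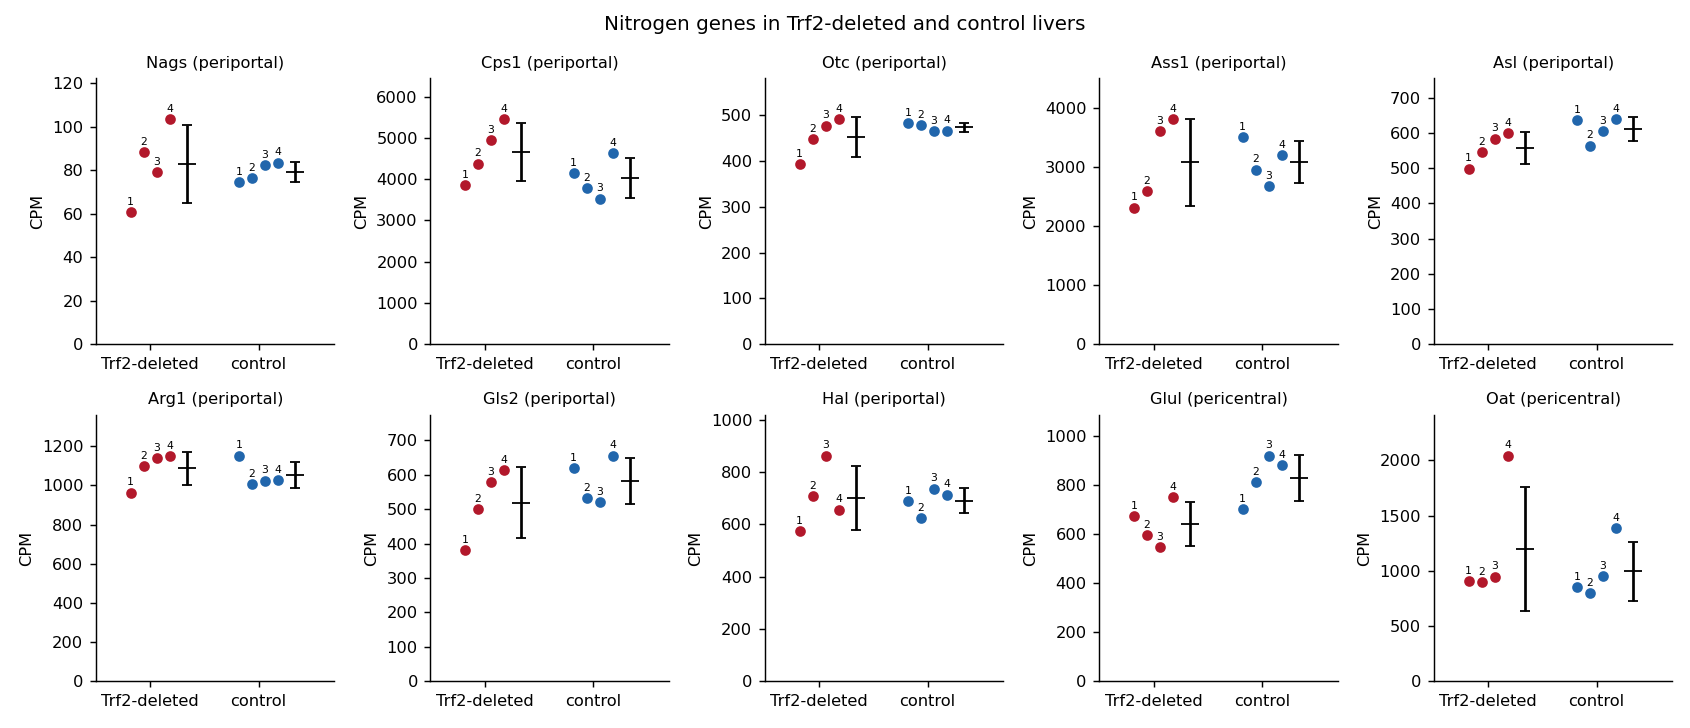
Level of each gene in CPM (vertical axes, from 0) in the 4 Trf2-deleted livers and the 4 control livers, 1 point per library with its replicate number, and the mean with SD in black. The points of the groups overlap in all 10 panels, and *Glul* has its Trf2-deleted livers at 547 to 750 CPM against 703 to 920 CPM in controls.

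The cycle starts in mitochondria with *Nags* and *Cps1*. *Nags* (chromosome 11, 102145513 to 102149477) makes N-acetylglutamate, without which carbamoyl phosphate synthetase does not work, and was the lowest member per length. It stood at 60.8, 88.4, 79.1 and 103.6 CPM in Trf2-deleted livers and at 74.6, 76.4, 82.4 and 83.5 CPM in control livers. Both the lowest and the highest liver of the 8 were Trf2-deleted, and the log2 fold change was 0.07 (SE 0.14, 95% confidence interval -0.23 to 0.37, adjusted p = 0.947). Its exons share 443 bases with the antisense gene *Gm11586*, which had 46 reads in the 8 livers together. *Cps1* (chromosome 1, 67123026 to 67231259) encodes the synthetase that fixes ammonia. It reached 3853, 4373, 4952 and 5457 CPM in Trf2-deleted livers, against 4153, 3784, 3530 and 4637 CPM in control livers. Deleted replicates 3 and 4 lay above every control, replicates 1 and 2 lay among the controls, and the log2 fold change of 0.21 (SE 0.12, interval -0.06 to 0.48) did not pass the test, with an adjusted p of 0.736.

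*Otc* (chromosome X, 10252305 to 10321024) joins carbamoyl phosphate to ornithine to give citrulline. Its level was 393, 448, 477 and 491 CPM in Trf2-deleted livers and 483, 478, 464 and 466 CPM in control livers. The controls lay within 1.04-fold of each other, the closest of any member, whereas the deleted livers spread over 1.25-fold around the same level (log2 fold change -0.06, SE 0.09, adjusted p = 0.906).

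In the cytosol *Ass1* (chromosome 2, 31470207 to 31520672) condenses citrulline with aspartate. The 4 Trf2-deleted livers had 2315, 2599, 3612 and 3819 CPM of *Ass1*, against 3513, 2960, 2684 and 3211 CPM in control livers. Deleted replicates 1 and 2 were below every control and replicates 3 and 4 above every control. The means were nearly equal, at 3086 ± 740.3 CPM in Trf2-deleted livers and 3092 ± 354 CPM in control livers (SD, n = 4 each), and the log2 fold change was -0.00 with an interval of -0.34 to 0.34. The pseudogene *Ass-ps1* had 0 reads in all livers, and sharing of reads with other copies was not tested.

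*Asl* (chromosome 5, 130011258 to 130029247), which splits argininosuccinate into arginine and fumarate, had 498, 545, 584 and 600.4 CPM in Trf2-deleted livers and 636, 564, 605 and 639 CPM in control livers. Replicate 1 and 2 of the deleted livers lay under all controls, and the log2 fold change was -0.13 (SE 0.09, interval -0.32 to 0.06, adjusted p = 0.772). *Arg1* (chromosome 10, 24915221 to 24927484) releases urea and gives ornithine back. Its values were 964, 1098, 1139.9 and 1148 CPM in Trf2-deleted livers, against 1152, 1006, 1025 and 1029 CPM in control livers. Of the deleted livers 3 lay between the highest control and the other controls, with a log2 fold change of 0.05 (SE 0.09, adjusted p = 0.944).

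Of the periportal enzymes that feed ammonia into the cycle, *Gls2* (chromosome 10, 128194457 to 128210004) is the liver-type glutaminase. It was at 381, 500.4, 579.5 and 614 CPM in Trf2-deleted livers and at 620.1, 531, 521 and 656 CPM in control livers. Deleted replicate 1 was the lowest of the 8, and the log2 fold change was -0.17 (SE 0.14, interval -0.47 to 0.14, adjusted p = 0.834). *Hal* (chromosome 10, 93488768 to 93519304), the first enzyme of histidine degradation, had 573, 708, 864 and 657 CPM in Trf2-deleted livers, against 688, 624, 737 and 714 CPM in control livers. The lowest and the highest of these livers were both Trf2-deleted, and the log2 fold change was 0.02 (SE 0.12, adjusted p = 0.986).

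The pericentral genes did not pass the test either. *Glul* (chromosome 1, 153899944 to 153909723), glutamine synthetase, had 672, 597, 547 and 750 CPM in Trf2-deleted livers, against 703, 812, 920.3 and 881 CPM in control livers. Of the deleted livers 3 lay below every control, and replicate 4 lay between the lowest control and the next. The mean was 642 ± 88.6 CPM in Trf2-deleted livers and 829 ± 95.2 CPM in control livers (SD, n = 4 each), a fold of 0.774 with an interval of 0.649 to 0.923. The log2 fold change of -0.37 (SE 0.12, unadjusted p = 0.0082 by edgeR) was not past the threshold once adjusted over all genes, at 0.439, and the adjusted p ran from 0.178 to 0.768 over the alternatives. Its exons share 116 bases with *Teddm2* on the other strand, which had 201 reads in the 8 livers.

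*Oat* (chromosome 7, 132557478 to 132576398) moves the amino group of ornithine and leads it toward glutamate and proline. It was at 904, 895, 946 and 2044 CPM in Trf2-deleted livers, against 850.0, 798, 949 and 1385 CPM in control livers. Replicate 4 was the highest in both groups, and the other 3 deleted livers lay within the range of the controls. The log2 fold change was 0.27 (SE 0.26, interval -0.31 to 0.84, adjusted p = 0.870), and it was -0.12 without Trf2-deleted replicate 4 and 0.08 without replicate 4 of both groups.

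**Figure D2:**
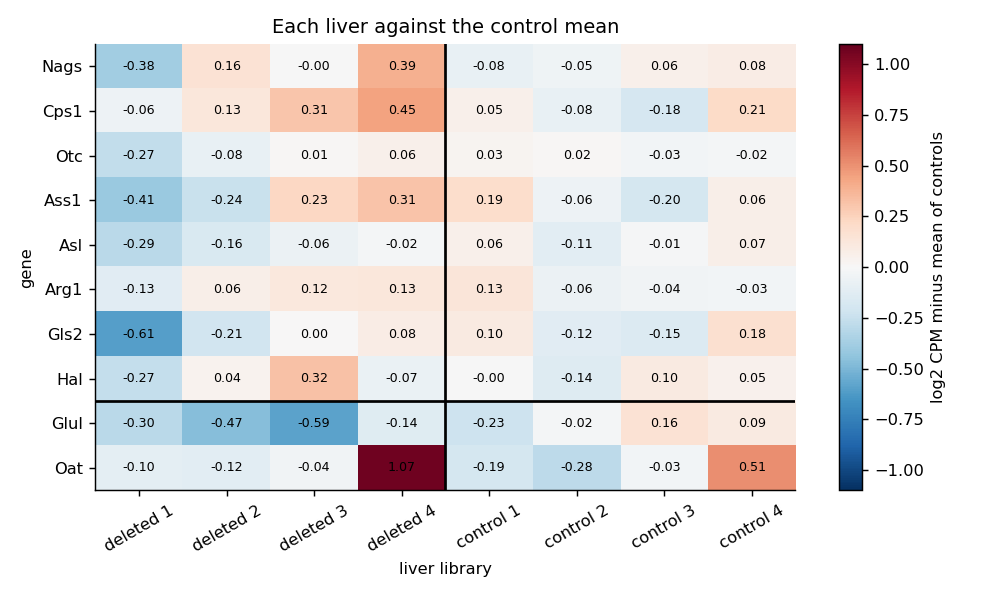
Log2 CPM of each gene (rows, periportal above the line) in each liver (columns, Trf2-deleted left of the line) minus the mean of the control livers. Trf2-deleted replicate 1 is negative in all 10 rows, replicate 4 is positive in 7 of them, *Glul* is negative in all 4 Trf2-deleted livers, and the darkest cell is *Oat* in Trf2-deleted replicate 4 at 1.07.

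In these genes the Trf2-deleted livers spread more widely than the controls. The coefficient of variation was larger in the deleted group for 10 of 10 members, for 55.8% of all tested genes, and for 65.4% of the 2029 genes whose group means summed to 150 CPM or more. It was 9.66% in deleted and 1.95% in control livers for *Otc*, 21.6% and 5.55% for *Nags*, 19.97% and 11.4% for *Gls2*, and 47.2% and 26.8% for *Oat*. The values lay closer for others, at 13.8% in deleted and 11.5% in control livers for *Glul*, 7.84% and 6.36% for *Arg1*, 14.9% and 11.9% for *Cps1*, and 8.17% and 5.74% for *Asl*. Trf2-deleted replicate 1 was the lowest of its group for 8 members, as it was for 26.6% of all genes, and replicate 4 was the highest for 9, as it was for 27.2%. Against the mean of the controls, the 8 periportal genes had a median log2 difference of -0.28 in deleted replicate 1, -0.02 in replicate 2, 0.06 in replicate 3 and 0.11 in replicate 4, and of -0.07 to 0.06 in the controls. All 8 were below the control mean in deleted replicate 1, and 6 were above it in each of replicates 3 and 4. Among the controls, 7 of the 8 were below it in replicate 2 and 6 in replicate 3. In each of control replicates 1 and 4, 6 were above it. Each control is part of that mean, which draws the controls toward it. The 10 genes of 1 liver share its library and its animal, so these counts describe 4 livers of each group and were given no test. Together the members took 1.06% to 1.61% of reads in genes in Trf2-deleted livers and 1.13% to 1.39% in control livers.

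Per length, *Ass1* was the highest and *Nags* the lowest member in both groups of livers. Levels as TPM (reads per exon length as a share of the library, with lengths of GENCODE M21) averaged 3134 ± 763 for *Ass1* and 2055 ± 315 for *Cps1* in Trf2-deleted livers, and 3157 ± 377 and 1786 ± 223 in control livers. *Oat* and *Arg1* took the next places, *Oat* with 1248 ± 606 TPM in Trf2-deleted and 1040 ± 284 TPM in control livers and *Arg1* with 1196 ± 88.1 and 1165 ± 80.9 TPM, so that *Oat* stood above *Arg1* in the deleted livers and below it in the controls, with overlapping libraries in both. *Glul* (474 ± 73.4 and 615 ± 70.3 TPM in deleted and control livers), *Gls2* (366 ± 72.9 and 413 ± 49.7 TPM), *Asl* (282 ± 23.2 and 312 ± 20.4 TPM), *Hal* (309 ± 49.97 and 307 ± 23.5 TPM) and *Otc* (261 ± 24.9 and 275 ± 5.51 TPM) came next. *Nags* was last, with 71.6 ± 15.6 TPM in Trf2-deleted and 68.8 ± 4.01 TPM in control livers (SD, n = 4 each throughout). In the deleted livers only *Arg1* and *Glul*, and *Otc* and *Nags*, were neighbors whose libraries did not overlap. Among controls 3 neighboring pairs overlapped, *Arg1* with *Oat*, *Asl* with *Hal* and *Hal* with *Otc*. By TPM *Ass1* ranked 39 among the 24219 genes with a read in Trf2-deleted livers and 40 among 24585 in control livers.

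**Figure D3:**
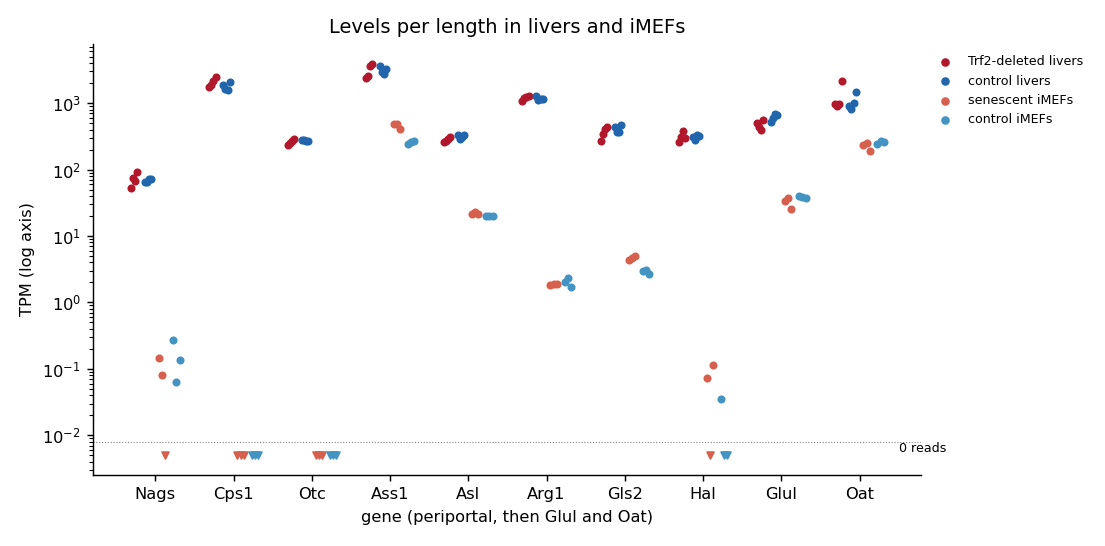
TPM on a log axis for each gene (horizontal axis) in single libraries of Trf2-deleted livers, control livers, senescent iMEFs and control iMEFs, with triangles under the dotted line for libraries with 0 reads. All 10 genes are at 53.5 TPM or more in every liver, and *Cps1* and *Otc* have 0 reads in all 6 iMEF libraries.

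The other genes of nitrogen metabolism also had few calls in the livers. In 15 tested genes for the transport and supply of the cycle, such as the ornithine carrier and the enzymes that make aspartate, 0 passed and the median change was 0.03 on the log2 scale. The 12 tested transporters of glutamine, ammonium and amino acids had 0 calls and a median of -0.12, with 11 of 12 negative, against 50.7% of all tested genes. The 21 genes of the histidine, proline and ornithine pathways had 0 calls and a median of 0.03, and the 16 enzymes of glutamate and glutamine had 0 and -0.04. Among 35 enzymes of other amino acid catabolism 0 passed in edgeR and limma-voom and 1 in DESeq2. Over these lists together, 96 of 105 genes were tested, with 0 calls by edgeR, 1 by DESeq2 and 0 by limma-voom. In edgeR 7 of the 96 were at an unadjusted p under 0.05, as were 7.54% of all tested genes. The livers of the groups did not overlap for 6 of the 96, 3 higher and 3 lower in Trf2-deleted livers. Over all tested genes, 2.55% were apart and higher and 1.96% apart and lower. The higher ones were *Pycrl*, a pyrroline-5-carboxylate reductase of proline synthesis (log2 fold change 0.36, SE 0.11, adjusted p = 0.398), and the enzymes *Ftcd* (0.23, adjusted p = 0.503) and *Uroc1* (0.10, adjusted p = 0.797), which act after *Hal* in histidine degradation. The lower ones were *Sds*, *Gpt2* and *Aqp9*, a channel for glycerol and urea (-0.18, adjusted p = 0.693). *Aqp9* and *Uroc1* were apart by little. The highest Trf2-deleted liver had 460.4 CPM of *Aqp9* and the lowest control 461.0 CPM. For *Uroc1* the lowest Trf2-deleted liver had 610.9 CPM and the highest control 607.4 CPM. The 1 gene called by DESeq2 was *Sds*, serine dehydratase, which was at 79.4, 99.3, 94.3 and 109.4 CPM in Trf2-deleted livers, against 163.0, 114.8, 141.6 and 147.1 CPM in control livers. All 4 deleted livers lay below all 4 controls, and the log2 fold change was -0.57 (SE 0.12, adjusted p = 0.107 by edgeR and 0.00396 by DESeq2). *Gpt2*, the mitochondrial alanine aminotransferase, had 260.3, 135.1, 317 and 327 CPM in Trf2-deleted livers, against 435, 379.8, 376 and 526 CPM in control livers, also without overlap, with a log2 fold change of -0.72 (SE 0.23, adjusted p = 0.439). These 6 genes were chosen after their values were seen.

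Markers of the lobule's zones other than the members gave 1 call. Of 14 periportal markers, 12 had a negative log2 fold change (median -0.10), where 50.7% of all tested genes were negative. By edgeR 1 fell, *Cdh1*, which encodes E-cadherin, where 0.035% of all tested genes passed as lower. *Cdh1* had 32.4, 33.5, 22.2 and 24.2 CPM in Trf2-deleted livers and 62.7, 53.2, 80.4 and 58.3 CPM in control livers. Every deleted liver lay under every control, and the log2 fold change was -1.18 (SE 0.16, adjusted p = 0.00542). DESeq2 called 2 of these markers, *Cdh1* and *Sds*, and its share of calls over all genes is not given here. Of 20 pericentral markers 0 passed by any of the 3 tools, with 3 at an unadjusted p under 0.05, and their median was -0.03, with 11 of 20 negative. The log2 fold changes ran from -0.38 in *Znrf3* to 0.37 in *Lect2*. *Cyp2e1*, a cytochrome P450 of the pericentral zone, had a log2 fold change of -0.14, *Slc1a2*, a glutamate transporter found with *Glul* around the central vein, of -0.26, the WNT targets *Axin2* and *Lgr5* of -0.04 and -0.03, and *Tbx3*, a transcription factor of pericentral hepatocytes, of 0.25, with adjusted p of 0.837, 0.801, 0.989, 0.986 and 0.879. All 7 of these markers were picked after their values were seen. The 34 regulators, among them *Hnf4a*, the glucagon receptor and the WNT ligands of the central vein, had 0 calls by any of the 3 tools, 3 genes at an unadjusted p under 0.05 by edgeR, and a median of -0.09. Of all tested genes, 7.54% were at an unadjusted p under 0.05 by edgeR.

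In iMEFs the cycle was incomplete. *Cps1* and *Otc* had 0 reads in each of the 3 senescent and 3 control libraries. They were set against a floor of 3 reads over the group, about the upper 95% limit of a count of 0 for counting error alone. By this floor the level in control livers was at least 77808-fold higher than in control iMEFs for *Cps1* and at least 9138-fold higher for *Otc*. The liver level was scaled with TMM factors and the floor was not. The tissues were not scaled to each other, so these folds are rough. *Nags* had 3 reads in the senescent iMEFs together and 7 in the controls, and *Hal* had 5 and 1. These 4 genes were not tested in iMEFs. The highest fibroblast levels were those of *Ass1*, with 466 ± 45.2 TPM in senescent and 257 ± 14.3 TPM in control cells, and *Oat*, with 224 ± 30.5 and 255 ± 12.4 TPM (SD, n = 3 each). *Glul* (32.0 ± 6.01 and 38.4 ± 1.12 TPM in senescent and control cells), *Asl* (22.1 ± 1.03 and 20.0 ± 0.156 TPM), *Gls2* (4.67 ± 0.352 and 2.91 ± 0.204 TPM) and *Arg1* (1.86 ± 0.0209 and 2.01 ± 0.293 TPM) were lower.

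Of the 6 members tested in iMEFs, 4 passed by edgeR, 2 higher and 2 lower, where 39.8% of the 13561 genes tested did, 18.6% higher and 21.2% lower. In 5 of the 6, all but *Arg1*, the groups did not overlap, 3 higher and 2 lower in senescent cells, as for 24.2% and 26.4% of all genes. *Asl*, counted as higher, was nearly tied, at 27.588 CPM in the lowest senescent and 27.559 CPM in the highest control library. *Ass1* rose, with 312, 314 and 273.6 CPM in senescent iMEFs against 165, 179 and 178 CPM in control iMEFs. The groups lay well apart, and the fold was 1.72 (interval 1.52 to 1.95, log2 fold change 0.78, SE 0.08, adjusted p = 1.54e-05). It passed under every alternative tried, the stricter threshold of 0.01 included.

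*Gls2* rose at a low level. It had 73, 71 and 83 reads in senescent iMEFs and 52, 61 and 49 reads in control iMEFs, which are 3.92, 4.33 and 4.76 CPM against 2.87, 3.08 and 2.57 CPM. The groups were apart, with a log2 fold change of 0.61 (SE 0.19, adjusted p = 0.0244), but DESeq2 gave an adjusted p of 0.0787, and it was 0.0501 to 0.0711 by edgeR without any 1 of the control iMEFs or without senescent replicate 2. Its exons share 97 bases with *Spryd4* on the other strand, which had 586 reads in senescent and 696 in control iMEFs (log2 fold change -0.13, adjusted p = 0.437). The strand setting of the counting is not given in the sources used here, so reads of the 2 genes in that stretch cannot be told apart.

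The pericentral genes both fell in iMEFs. *Glul* had 29.3, 32.6 and 23.1 CPM in senescent iMEFs against 37.1, 36.7 and 33.8 CPM in control iMEFs, with a log2 fold change of -0.34 (SE 0.12, adjusted p = 0.0379). *Oat* had 145.0, 154 and 122 CPM in senescent against 162, 179 and 165 CPM in control cells, with a log2 fold change of -0.26 (SE 0.09, adjusted p = 0.0386). Senescent replicate 3 was the lowest library for both, and without it the log2 fold changes were -0.20 for *Glul* and -0.16 for *Oat*, with adjusted p of 0.0980 and 0.0892. Neither call held without any 1 of the control libraries or without senescent replicate 1. *Asl* had 27.6, 29.8 and 28.3 CPM in senescent against 27.6, 27.3 and 26.7 CPM in control iMEFs (log2 fold change 0.07, adjusted p = 0.565), and *Arg1*, with 20, 18 and 20 reads against 23, 29 and 20, had a log2 fold change of -0.19 (SE 0.30, adjusted p = 0.645).

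**Figure D4:**
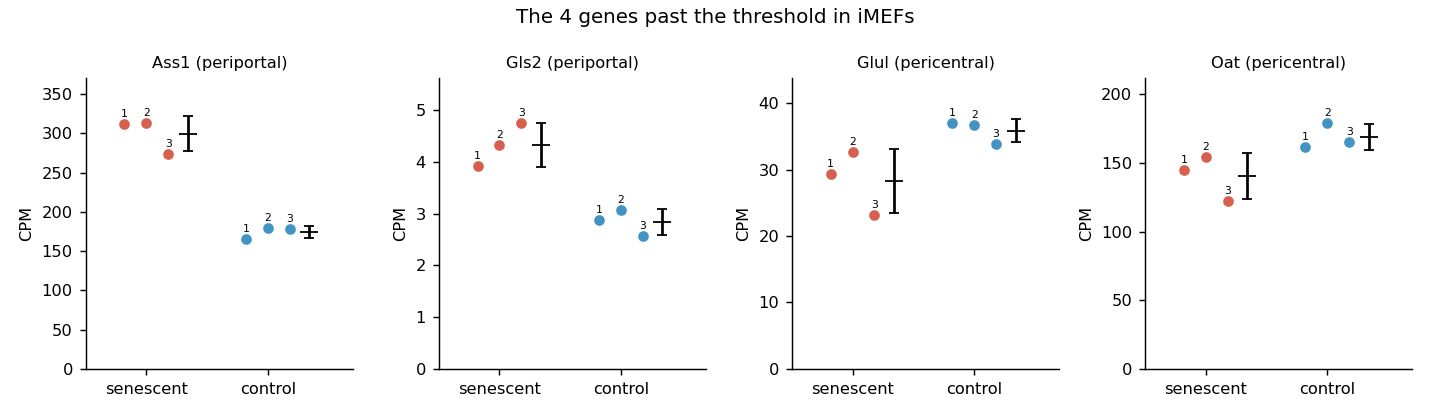
CPM (vertical axes, from 0) of the 4 genes past the threshold in iMEFs, in 3 senescent and 3 control libraries, with replicate numbers and the mean with SD in black. *Ass1* and *Gls2* are higher and *Glul* and *Oat* lower in senescent cells, with no overlap of the groups in any panel.

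The change in livers was set against that in iMEFs in 1 fit over all 14 libraries, where 17.1% of the 11693 genes tested in both tissues differed. Of the 6 members, 2 differed. For *Ass1* the log2 fold change in livers minus that in iMEFs was -0.79 (SE 0.22, adjusted p = 0.0187), and for *Gls2* it was -0.77 (SE 0.24, adjusted p = 0.0359). The livers had log2 fold changes of -0.00 and -0.17 in these genes, against 0.78 and 0.61 in iMEFs. *Ass1* did not pass without control iMEF replicate 1 (adjusted p = 0.0561). *Gls2* did not pass by limma-voom (0.227) or without control livers 1 or 4, Trf2-deleted liver 2, any 1 of the control iMEFs, or senescent replicate 2 or 3, at 0.0532 to 0.0851. *Glul* was at -0.37 in livers and -0.34 in iMEFs, and the difference was -0.03 with an interval of -0.43 to 0.36. *Oat* (0.53, SE 0.35, adjusted p = 0.323), *Arg1* (0.24, adjusted p = 0.563) and *Asl* (-0.21, adjusted p = 0.283) did not pass. The fits of livers and iMEFs share no library, but tissue, means of deletion and time after it differ together and cannot be told apart.

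**Figure D5:**
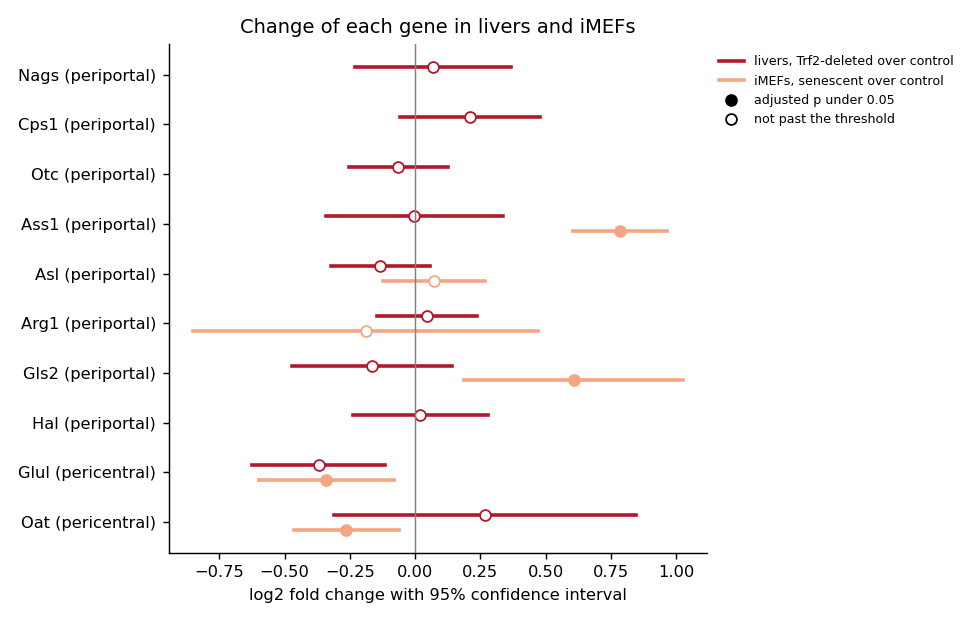
Log2 fold change (horizontal axis) with 95% confidence interval for each gene, Trf2-deleted over control livers in dark red and senescent over control iMEFs in light red, with filled points for an adjusted p under 0.05. No liver point is filled, *Ass1* and *Gls2* are filled on the right and *Glul* and *Oat* on the left in iMEFs, and *Nags*, *Cps1*, *Otc* and *Hal* were not tested in iMEFs.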

How the data were processed

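RNA of livers and iMEFs was sequenced at Novogene in paired-end mode. The authors deposited raw counts of reads per gene, aligned to mm10. STAR, featureCounts and DESeq2 stand in the submitters' processing notes without versions, and neither the strand setting nor the annotation release is given in the sources used here. Normalized tables were not used, and 0 sample columns were left out.

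Counts of each tissue went into a separate model in edgeR 4.0.16 under R 4.3.3 (filterByExpr, TMM, quasi-likelihood test, with 6 residual degrees of freedom for livers and 4 for iMEFs), with Benjamini-Hochberg adjustment over all genes tested and a threshold of 0.05. P-values measure the spread between these samples. Replicates differed by more than sampling noise, with a chi-square per degree of freedom of 12.9 to 35.8 in livers and 4.02 to 29.8 in iMEFs. TPM used exon lengths of GENCODE M21, where 54495 of the 54532 gene IDs were found, in place of the planned lengths from the liver table. Alternatives were DESeq2 1.42.0, limma-voom 3.58.1, RLE factors, no filter, a stricter threshold of 0.01, a block for the replicate number, omission of single libraries, and for levels TMM-scaled CPM per kilobase.

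The members and lists were chosen with earlier results of these data known. All members and *Terf2* are named. The plan added up to 4 genes of each list past the threshold in livers and up to 2 in the other direction. By edgeR only *Cdh1* met it. The other list genes given with values in livers were named outside this plan, after their values were seen. Scripts were tested on simulated data. Python 3.11.15, numpy 2.4.6, pandas 2.3.3 and matplotlib 3.10.9 were used.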

Additional observations from a re-analysis of the deposited data

Results flagged for a closer look

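A single liver stood apart from the rest of its group in 2 of the 20 gene and group pairs looked at, where chance gives about 1 in 20. *Oat* was at 2044 CPM in Trf2-deleted replicate 4, with a gap to the next liver that made up 0.956 of the range of its group. *Arg1* was at 1152 CPM in control replicate 1, with a gap of 0.845 of the range.

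The log2 fold changes of the 2 comparisons, Trf2-deleted over control livers and senescent over control iMEFs, differed for 2 genes by the test of the difference. *Ass1* had a log2 fold change in livers minus that in iMEFs of -0.79 (edgeR, adjusted p = 0.0187), and *Gls2* of -0.77 (adjusted p = 0.0359).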

How the results depend on the processing

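In livers the count of members called was 0 under every alternative, also without replicate 4 of both groups, which was chosen after seeing the data. In iMEFs 4 members were called, 1 at a threshold of 0.01, 3 by DESeq2, and 1 to 3 with 1 library left out. The difference between tissues had 2 calls, 1 by limma-voom (*Gls2* at an adjusted p of 0.227) and 0 to 2 with 1 library left out. The 0 came without control iMEF replicate 1, where *Ass1* had an adjusted p of 0.0561. Signs turned for uncalled values near 0, whose log2 values with 1 library left out ran from -0.12 to 0.11 for *Ass1*, -0.058 to 0.19 for *Nags*, -0.094 to 0.11 for *Hal* and -0.12 to 0.47 for *Oat* in livers, and from -0.17 to 0.085 for the difference of *Glul*. *Nags* was also at -0.031 without replicate 4 of both groups. The causes were not tested, though leaving out a library also leaves fewer samples. The alternative scale for levels differs from TPM by 1 factor per library, which cancels in the shares compared, so it tests nothing about them.

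The replicate numbers were not taken to pair the samples. Deviations of same-numbered samples correlated at -0.08 to 0.24 in livers, where replicate 4 was the 1 pair above 0.1, and at -0.17 to -0.01 in iMEFs. With the replicate number as a block, 0 members were called in livers and 3 in iMEFs, *Gls2* being at an adjusted p of 0.0510.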
